A study of Mus musculus with 4 samples.

Results

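Nuclear receptors and the coregulators that work with them were followed in the gastrocnemius, a mainly fast-fibred muscle of the calf, of mice that overexpress the receptor PPARbeta (gene Ppard) in muscle. The rule named 41 genes by symbol, and each was read from its probe set of highest mean over all arrays. The naming did not use their values, but earlier results of these data were known when the members were chosen. Probe sets of the array carried 38 of them, among 12393 named genes. Of the 38, 27 lay above the filter on dim signals and were tested, among 6841 genes, and 11 lay below it. Nr1h2, Nr3c2 and Ncor1 were not analysed here.

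MCK-PPARb muscle came from transgenic mice with muscle-specific overexpression of PPARbeta, on 2 arrays, and non-transgenic muscle came from wild-type littermates, on 2 arrays. All mice were 6 weeks old. MCK stands for muscle creatine kinase, whose promoter is active in differentiated muscle fibres. The number of transgenic lines is not given in the sources used here, and every result below holds for these mice only. The titles speak of biological replicates, while the design text can also be read as replicate arrays, so p-values measure the spread between these arrays, which may be technical.

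Nuclear receptors are transcription factors that are switched by small lipophilic ligands such as fatty acids, thyroid hormone, retinoic acid, glucocorticoids and haem, or that work as orphans without a known natural ligand. PPARs, thyroid hormone, retinoic acid, vitamin D and liver X receptors bind DNA as heterodimers with an RXR. A bound receptor recruits coactivators such as the PGC-1 and steroid receptor coactivator proteins, or corepressors such as NCoR and RIP140. In muscle PPARbeta is best known for switching on genes of fatty acid use, and the ERR receptors with PGC-1 for mitochondrial genes.

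The arrays had been brought to the same trimmed mean signal of 1501, and their median signals lay between 431 and 513. The 10 brightest probe sets held 2.78% and 2.44% of all signal on the MCK-PPARb arrays, and 4.20% (replicate 1) and 2.36% (replicate 2) on the non-transgenic arrays. The tissue label was checked against muscle markers. All 12 genes of the skeletal muscle list lay above the filter, and Mylpf, the fast regulatory myosin light chain, read 163039 and 144290 in MCK-PPARb muscle and 254495 and 137470 in non-transgenic muscle. Since the samples are whole muscle, fewer cells of a type and less RNA per cell cannot be told apart.

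The promoters of the NR4A genes and of Ppard and Ckm are shown first, because Ppard had the largest rise of the family, Nr4a1 the largest difference in the other direction, and Ckm is the gene whose promoter names the transgene. Of the family, 36 genes had a promoter in the RefSeq table of build GRCm38.p6. Each sequence is the 250 bases before the annotated start, 5′ to 3′ on the strand of the gene. Capitals in the 3 NR4A promoters mark TGACG, the half-site of the cyclic AMP response element, searched on both strands. On the other strand it reads as its reverse complement. Capitals in the other promoters mark CAGCTG, an E-box letter sequence that muscle regulatory factors can bind, which is its own reverse complement. Matches of neither motif overlapped another match.
Nr4a1, chr15:101266596-101266845, plus strand: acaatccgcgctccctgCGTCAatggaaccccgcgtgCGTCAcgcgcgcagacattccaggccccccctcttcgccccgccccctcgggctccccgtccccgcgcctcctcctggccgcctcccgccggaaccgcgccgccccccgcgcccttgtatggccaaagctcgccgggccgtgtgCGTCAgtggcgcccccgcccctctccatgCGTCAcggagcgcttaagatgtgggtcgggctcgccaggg
Nr4a2, chr2:57124004-57124253, minus strand: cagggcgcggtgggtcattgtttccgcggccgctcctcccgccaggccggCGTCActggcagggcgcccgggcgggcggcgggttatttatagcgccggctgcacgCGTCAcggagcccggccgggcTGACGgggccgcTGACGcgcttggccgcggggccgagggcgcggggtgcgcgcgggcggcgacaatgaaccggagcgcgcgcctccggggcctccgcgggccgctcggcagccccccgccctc
Nr4a3, chr4:48045055-48045304, plus strand: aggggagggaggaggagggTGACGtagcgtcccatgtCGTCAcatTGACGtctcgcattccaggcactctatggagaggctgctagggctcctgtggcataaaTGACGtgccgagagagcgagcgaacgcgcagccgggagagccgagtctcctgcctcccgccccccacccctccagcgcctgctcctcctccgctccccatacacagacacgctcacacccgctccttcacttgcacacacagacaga
Ppard, chr17:28232504-28232753, plus strand: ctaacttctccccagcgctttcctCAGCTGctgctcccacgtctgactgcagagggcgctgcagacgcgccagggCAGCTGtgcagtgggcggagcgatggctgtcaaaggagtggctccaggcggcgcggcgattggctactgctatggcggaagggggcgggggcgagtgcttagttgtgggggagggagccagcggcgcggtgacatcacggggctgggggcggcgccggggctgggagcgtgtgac
Ckm, chr7:19410844-19411093, plus strand: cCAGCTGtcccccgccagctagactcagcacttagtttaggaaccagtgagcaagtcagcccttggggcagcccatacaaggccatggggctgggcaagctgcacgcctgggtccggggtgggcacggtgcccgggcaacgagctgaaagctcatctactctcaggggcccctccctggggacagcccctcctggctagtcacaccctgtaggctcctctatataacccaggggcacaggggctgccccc

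Each of the 3 NR4A promoters held 4 matches to TGACG. At least 4 matches were present in 0.137% of all 32851 promoters of the table, and in no other member promoter. At least 1 match was present in 17.8% of all promoters, and in 12 of the 57 promoters of these genes. The cutoffs of 4 here and of 2 for CAGCTG were taken from the counts in the promoters shown. The matches of Nr4a1 began 233, 213, 69 and 40 bases before the start. The Ppard promoter held 2 matches to CAGCTG and the Ckm promoter 1, against at least 2 matches in 1.26% and at least 1 match in 13.0% of all promoters. These are the mouse's own promoters, and which stretch of the creatine kinase gene the transgene carries is not given in the sources used here. In the windows of 300 bases that the table gives, the nuclear receptor half-site AGGTCA was found in 15.8% of the 57 promoters of these genes, those of Rxra, Rxrg, Pparg, Thrb and Nr1d2 among them, and in 16.3% of all promoters. The clock E-box CACGTG was found in 7.02% of the 57, and in 7.15% of all promoters. Both shares are near those of all promoters. A match is a description of letters and not a bound site.

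Of the 27 tested genes, 1 rose, Ppard, and 0 fell, at an adjusted p under 0.05 (limma, Benjamini-Hochberg over all probe sets tested). Over all tested genes 0.731% were called, and 0.409% were called higher. An unadjusted p under 0.05 was reached by 4 of the 27, Ppard, Nr4a1, Nr1d2 and Ppara, beside 10.9% of all tested genes. Of the 27, 15 had a positive difference and 12 a negative one, and the median log2 difference was 0.012, beside 0.011 over all tested genes. The groups did not overlap for 12 of the 27, 6 higher and 6 lower in MCK-PPARb muscle, beside 42.9% of all tested genes. That share is near the one over all genes. Differences in the text are log2 values of MCK-PPARb minus non-transgenic, with their standard error from the fit and 2 arrays per group. With 2 arrays against 2, the smallest p of an exact two-sided permutation test is 0.333, so every call rests on the spread that limma pools over probe sets.

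**Figure D1:**
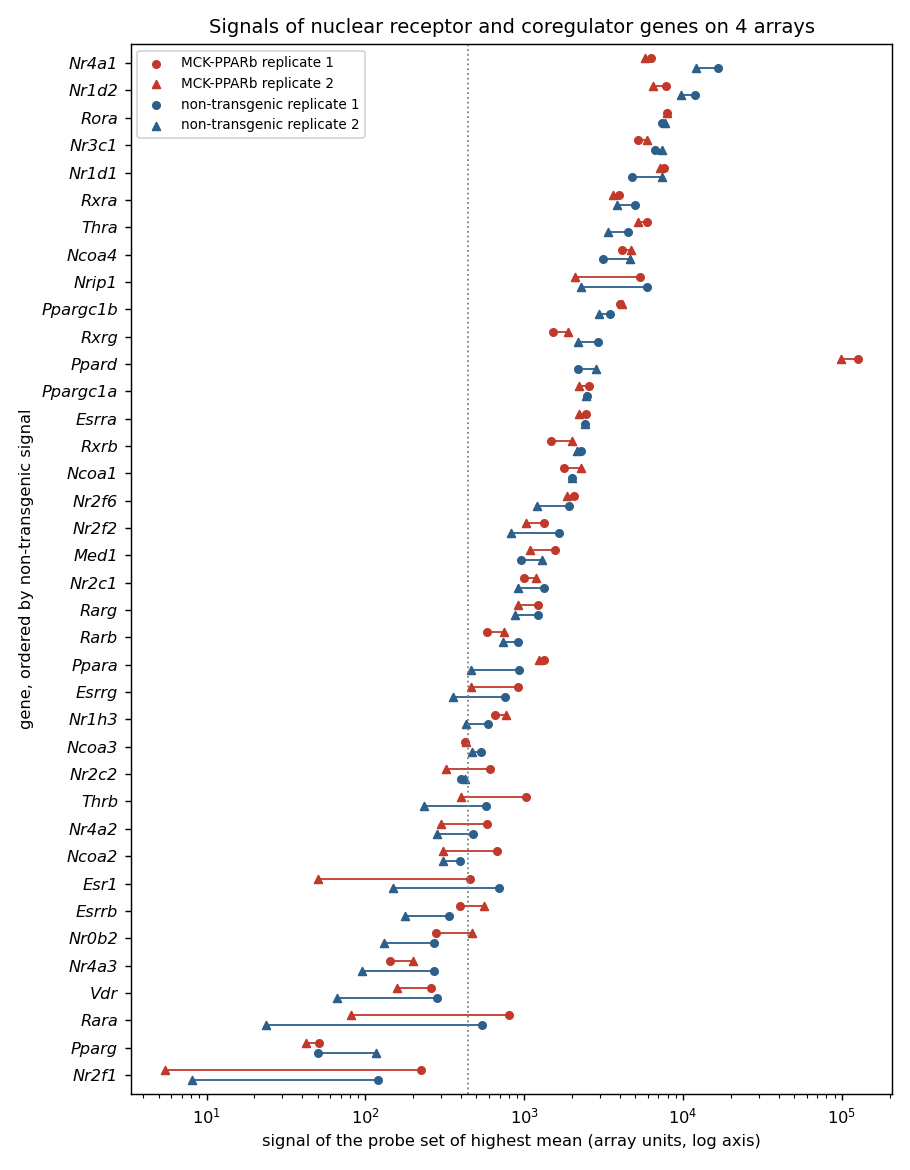
Signal of each of the 38 genes on the 4 arrays, in array units on a log axis, with MCK-PPARb (red) above non-transgenic (blue) in each row, circles for replicate 1 and triangles for replicate 2, joined by a line. Genes are ordered by their non-transgenic signal, and the dotted line marks the filter at 444 units. Ppard is the gene whose groups lie farthest apart. Of the 11 genes below the filter, Esrrb and Nr0b2 have groups that do not overlap, beside 42.9% of all tested genes.

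In non-transgenic muscle, signals of the family spanned the range from Nr4a1, at 16555 and 12076, down to Nr2f1, at 120 and 8.10. A probe set's brightness depends on its probes as well as on the transcript, so the order that follows is one of signals and not of transcript numbers. The brightest were Nr4a1, an orphan receptor induced by contraction and hormones, and the clock receptors Nr1d2, Rora and Nr1d1, with the glucocorticoid receptor gene Nr3c1 among them. Nr1d2 read 11814 and 9757, Rora 7324 and 7726, Nr3c1 6667 and 7343, and Nr1d1 4762 and 7361 in non-transgenic muscle. Rora, Nr3c1 and Nr1d1 overlapped, so these neighbours were not separated beyond their spread. A middle band held Rxra, Thra, Ncoa4, Nrip1 and Ppargc1b at 2288 to 5972, and Rxrg, Ppard, Ppargc1a, Esrra, Rxrb and Ncoa1 at 1993 to 2918.

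Ppard ranked 12th of 38 by signal in non-transgenic muscle, where its arrays overlapped those of its neighbours Rxrg, Ppargc1a and Esrra. It read 126049 and 98797 in MCK-PPARb muscle, against 2169 and 2825 in non-transgenic muscle. Both MCK-PPARb arrays lay far above every other gene of the family on any array. The rise was 45.1-fold (log2 5.49 ± 0.22, 95% interval 4.99 to 6.00, adjusted p = 0.000187 with limma). Among all probe sets of the array it lay at the 99.9th percentile of MCK-PPARb muscle and the 83.1st percentile of non-transgenic muscle. Ppard has 1 probe set, so the transgene's transcript and the mouse's own are not separated. The difference was 5.30 to 5.68 over all alternatives and passed in each.

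Neither of the other PPAR genes passed. Ppara, the PPAR best known for fatty acid oxidation in liver and heart, read 1327 and 1244 in MCK-PPARb muscle, against 925 and 462 in non-transgenic muscle. Both MCK-PPARb arrays were higher, with a difference of 0.98 ± 0.38 (95% interval 0.10 to 1.85), which did not pass (adjusted p = 0.411 with limma). Its size rests on the non-transgenic arrays, at 1.48 without replicate 1 (adjusted p = 0.0967 with limma) and 0.47 without replicate 2, the dimmer array. Pparg, the PPAR of fat cells, read 51.0 and 42.5 in MCK-PPARb muscle, against 50.1 and 118 in non-transgenic muscle, below the filter on every array. No fold is given for it.

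All 3 RXR genes, whose proteins are the partners of PPARbeta on DNA, had lower means in MCK-PPARb muscle, and none passed. Rxrg, the RXR typical of striated muscle, read 1520 and 1883 in MCK-PPARb muscle, against 2918 and 2179 in non-transgenic muscle. These groups did not overlap, with a difference of -0.58 ± 0.25 (95% interval -1.17 to 0.015, adjusted p = 0.483 with limma). Rxrb read 1470 and 1992 in MCK-PPARb muscle, against 2271 and 2146 in non-transgenic muscle, also without overlap (-0.37 ± 0.24, 95% interval -0.94 to 0.21). Rxra read 3939 and 3625 in MCK-PPARb muscle, against 4957 and 3816 in non-transgenic muscle, where the groups overlapped (-0.20 ± 0.21, 95% interval -0.70 to 0.30). The other probe set of Rxra had a difference of -0.28. With 1 array left out the signs held and the sizes moved, from -0.79 to -0.36 for Rxrg, -0.59 to -0.15 for Rxrb and -0.39 to -0.014 for Rxra. The weakest values were those without non-transgenic replicate 1 for Rxrg and Rxra and without MCK-PPARb replicate 1 for Rxrb.

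**Figure D2:**
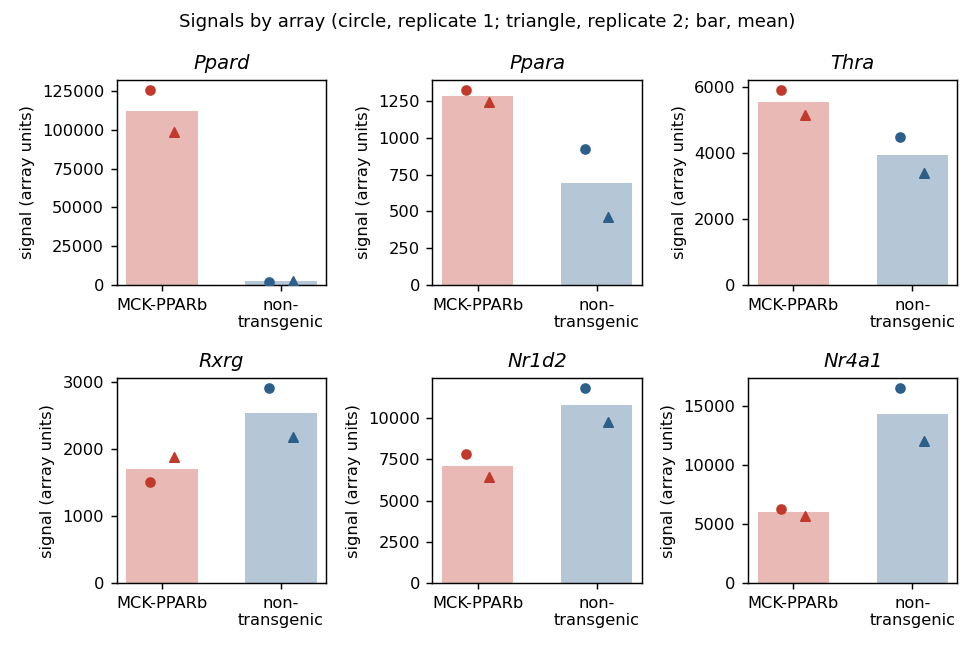
Signals in array units of 6 genes, with MCK-PPARb at the left and non-transgenic at the right of each panel, circles for replicate 1, triangles for replicate 2 and bars for the mean of 2 arrays, on axes that start at 0. Ppard, Ppara and Thra had both MCK-PPARb arrays above both non-transgenic arrays, and Rxrg, Nr1d2 and Nr4a1 had both below, and of the 6 only Ppard passed the test.

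Thyroid hormone receptors, which set contractile and metabolic genes of muscle, had positive differences. Thra, the main form in skeletal muscle, read 5935 and 5168 in MCK-PPARb muscle, against 4483 and 3386 in non-transgenic muscle. The groups did not overlap, and the difference of 0.51 ± 0.22 (95% interval -0.0028 to 1.02) did not pass (adjusted p = 0.475 with limma). Its other probe set, with signals of 2569 and 1457 in MCK-PPARb muscle and 1789 and 1079 in non-transgenic muscle, had a difference of 0.48, with overlapping groups. Thrb read 1032 and 400 in MCK-PPARb muscle, against 578 and 236 in non-transgenic muscle, and the arrays of a group differed more than the group means did (0.80 ± 0.60). Its geometric mean was 642 in MCK-PPARb and 369 in non-transgenic muscle, so Thrb passed the filter of 444 units through the MCK-PPARb arrays. The sign of Thrb is therefore not independent of the filter. With 1 array left out the range was 0.30 to 0.71 for Thra and 0.12 to 1.48 for Thrb, lowest without non-transgenic replicate 2 for Thra and without MCK-PPARb replicate 1 for Thrb.

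Clock receptors divide into Rora, an activator, and Nr1d1 and Nr1d2 (Rev-erb alpha and beta), repressors that compete for the same DNA element and bind haem. Nr1d2 read 7797 and 6429 in MCK-PPARb muscle, against 11814 and 9757 in non-transgenic muscle. Both MCK-PPARb arrays were lower, 1.52-fold on the fitted means (-0.60 ± 0.20, 95% interval -1.07 to -0.13), which did not pass (adjusted p = 0.334 with limma). Its second probe set had the same sign (-0.67), with 1135 and 953 in MCK-PPARb muscle and 2138 and 1276 in non-transgenic muscle, again without overlap. Nr1d1 read 7538 and 7194 in MCK-PPARb muscle, against 4762 and 7361 in non-transgenic muscle, where the groups overlapped (0.31 ± 0.24). The difference of Nr1d1 was 0.00064 without non-transgenic replicate 1 and 0.63 without non-transgenic replicate 2. Rora read 7936 and 7939 in MCK-PPARb muscle, against 7324 and 7726 in non-transgenic muscle, without overlap but with a small difference (0.077 ± 0.18). Its 2 other kept probe sets had differences of 0.33 and -0.66, so the probe sets of Rora did not share a sign.

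Nr4a1 encodes Nur77, an orphan receptor and immediate early gene of exercised muscle that acts on glucose and lipid genes. It read 6291 and 5747 in MCK-PPARb muscle, against 16555 and 12076 in non-transgenic muscle. Both MCK-PPARb arrays lay below both non-transgenic arrays, 2.35-fold on the fitted means (-1.23 ± 0.21, 95% interval -1.73 to -0.74). With an adjusted p of 0.0691 in limma it missed the threshold over all probe sets. It was called under several alternatives, among them without non-transgenic replicate 2 (-1.46, adjusted p = 0.0149), and over all alternatives the difference was -1.46 to -1.01 and the adjusted p 0.00185 to 0.296. It was the brightest of the 38 in non-transgenic muscle and ranked 5th in MCK-PPARb muscle. Its relatives Nr4a2 and Nr4a3, whose promoters also held 4 matches each, lay below the filter. Nr4a2 read 583 and 300 in MCK-PPARb muscle, against 474 and 284 in non-transgenic muscle, and Nr4a3 read 143 and 201, against 271 and 94.8. Both pairs of groups overlapped.

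The ERRs and PGC-1 coactivators drive mitochondrial genes. Esrra read 2433 and 2210 in MCK-PPARb muscle, against 2408 and 2404 in non-transgenic muscle (-0.053 ± 0.21, 95% interval -0.54 to 0.44). Ppargc1a, the gene of PGC-1 alpha, read 2541 and 2224 in MCK-PPARb muscle, against 2495 and 2450 in non-transgenic muscle (-0.057 ± 0.21, 95% interval -0.55 to 0.44). For both of these probe sets the groups overlapped, and their intervals leave room for changes up to about 1.5-fold either way. The 5 probe sets of Ppargc1a did not share a sign. Its others were at -0.42 ± 0.25, without overlap, and at -0.025 ± 0.25, 0.086 ± 0.41 and 0.22 ± 0.53, with overlap. The limit of about 1.5-fold therefore does not hold for every probe set of Ppargc1a. Ppargc1b, the gene of PGC-1 beta, read 4032 and 4150 in MCK-PPARb muscle, against 3460 and 2969 in non-transgenic muscle, without overlap (0.35 ± 0.20, adjusted p = 0.593 with limma). Esrrg, the ERR of slow and oxidative muscle, read 911 and 465 in MCK-PPARb muscle, against 752 and 357 in non-transgenic muscle, where arrays of a group differed more than the group means (0.33 ± 0.49). Esrrb was below the filter, at 395 and 555 in MCK-PPARb muscle, against 338 and 177 in non-transgenic muscle.

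Nr3c1, the glucocorticoid receptor gene, read 5221 and 5945 in MCK-PPARb muscle, against 6667 and 7343 in non-transgenic muscle. These groups did not overlap, but the difference was small (-0.33 ± 0.19, adjusted p = 0.598 with limma). The 2 other probe sets of Nr3c1 were at -0.11 and -0.053. Nr1h3, the gene of the oxysterol receptor LXR alpha, read 658 and 772 in MCK-PPARb muscle, against 592 and 430 in non-transgenic muscle, without overlap (0.50 ± 0.34, or 0.27 without non-transgenic replicate 2). The retinoic acid receptor genes Rarb (-0.30 ± 0.32) and Rarg (0.034 ± 0.31) and the orphan receptor genes Nr2c1 (-0.023 ± 0.30), Nr2f2 (0.0049 ± 0.37) and Nr2f6 (0.37 ± 0.28) had overlapping groups. The other kept probe set of Nr2c1 was at 0.31 ± 0.34, so the probe sets of Nr2c1 did not share a sign. For Rarg the other kept probe set was at 0.43 ± 0.49.

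Among the general coregulators, no gene passed. The steroid receptor coactivator genes Ncoa1 (0.012 ± 0.23) and Ncoa3 (-0.23 ± 0.35), the ferritin receptor and coactivator gene Ncoa4 (0.21 ± 0.24) and the Mediator subunit gene Med1 (0.23 ± 0.30) had differences within 1.5-fold, and the groups of Ncoa3 did not overlap. The geometric mean of Ncoa3 was 427 in MCK-PPARb and 502 in non-transgenic muscle. It passed the filter of 444 units through the non-transgenic arrays. The other kept probe set of Med1 was at 0.38 ± 0.36. Nrip1, the gene of the corepressor RIP140, which holds back oxidative genes in muscle, read 5328 and 2098 in MCK-PPARb muscle, against 5972 and 2288 in non-transgenic muscle. Replicate 1 was over 2-fold brighter than replicate 2 in both groups, and the difference was -0.14 ± 0.54. Its sign turned without MCK-PPARb replicate 2 (0.53) and without non-transgenic replicate 1 (0.55). Of the 27 tested genes, 14 had a 95% interval that stayed within 2-fold in either direction. For the others the data do not limit the change that closely.

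**Figure D3:**
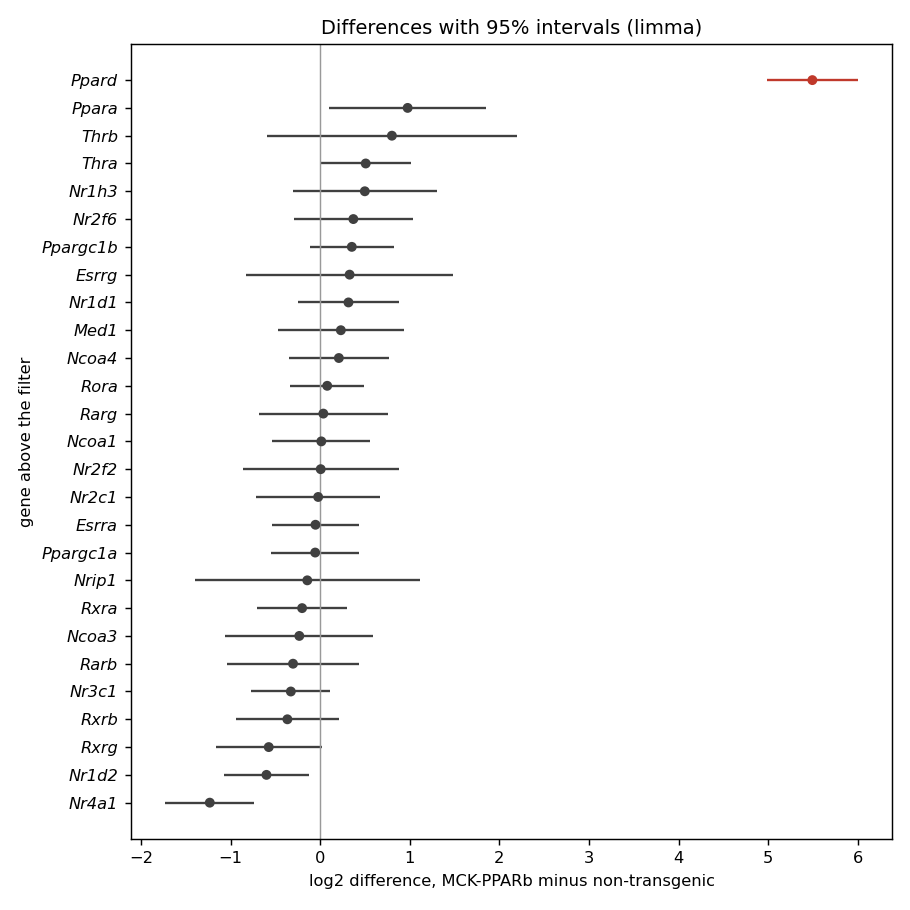
Log2 difference, MCK-PPARb minus non-transgenic, of the 27 genes above the filter, with 95% intervals from limma on 2 arrays per group. Ppard (red) is the gene called over all probe sets, Nr4a1 has the largest negative difference at -1.23, and the intervals of 4 genes, Ppard, Ppara, Nr1d2 and Nr4a1, exclude 0.

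The 11 genes below the filter had signals from 5.50 to 806 over the 4 arrays. They are the retinoic acid receptor gene Rara, the oestrogen and vitamin D receptor genes Esr1 and Vdr, Nr0b2 (the repressor SHP, mainly of liver), Nr2c2, Nr2f1, Ncoa2, Esrrb, Pparg, Nr4a2 and Nr4a3. In the fit with no filter, 0 of the 11 and 1 of all 38 passed, the 1 being Ppard, beside 0.428% of all named genes, and 6 of the 38 had an unadjusted p under 0.05 (limma), beside 8.09% of all named genes. Esrrb and Nr0b2 had both MCK-PPARb arrays above both non-transgenic arrays. Of all tested genes 42.9% had groups that did not overlap, and that share was not computed for genes below the filter. Nr0b2 read 278 and 472 in MCK-PPARb muscle, against 269 and 130 in non-transgenic muscle. The other 9 overlapped.

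Of the 38 genes, 19 were brighter on replicate 1 in both groups, and 3 were brighter on replicate 2 in both. Over all probe sets, 28.5% of those kept and 39.5% of those below the filter were brighter on replicate 1 in both groups. The median signal was 513 and 454 on the MCK-PPARb arrays and 466 and 431 on the non-transgenic arrays, replicate 1 first. Replicate 1 was over 1.5-fold brighter than replicate 2 in both groups for 8 of the 38, namely Nrip1, Thrb, Esrrg, Nr4a2, Esr1, Vdr, Rara and Nr2f1, and the opposite was seen for 0. Rara read 806 and 81.5 in MCK-PPARb muscle, against 541 and 23.6 in non-transgenic muscle. Esr1 read 453 and 50.2 in MCK-PPARb muscle, against 698 and 149 in non-transgenic muscle. For both genes replicate 1 of each group was brighter than replicate 2 of either group. Among the tested genes this pattern of over 1.5-fold was seen in 3 of 27, beside 2.63% of all tested genes. That share was not computed for genes below the filter, where the others of the 8 lie. The cause of this pattern was not tested.

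**Figure D4:**
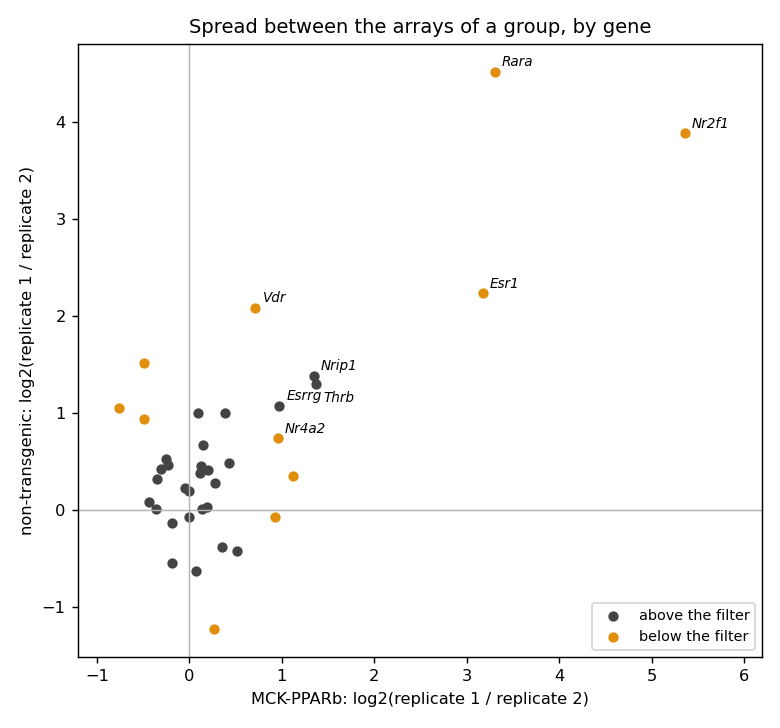
Log2 ratio of replicate 1 to replicate 2 in MCK-PPARb muscle (horizontal) and in non-transgenic muscle (vertical) for each of the 38 genes, dark above and orange below the filter. The 8 named genes were over 1.5-fold brighter on replicate 1 in both groups, and 5 of them lie below the filter.

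Genes that work with these receptors were read from lists chosen by function, with earlier results of these data known. The counts of each list stand beside 0.731% called, and 10.9% at an unadjusted p under 0.05, over all tested genes. Of 12 other nuclear receptor genes on the array, 0 lay above the filter, and their signals did not exceed 437 on any array. They include Hnf4a and Nr1h4, receptors of liver, and Nr5a1, a receptor of steroid-making glands. Of 23 tested other coregulator genes, 1 rose, 0 fell and 22 did not pass, with a median of 0.039. The gene that rose was Cited2, which binds the coactivators CBP and p300 and can coactivate PPARs. It read 20882 and 13802 in MCK-PPARb muscle, against 4722 and 4676 in non-transgenic muscle, a rise of 3.61-fold (1.85 ± 0.23, adjusted p = 0.0215 with limma). The call was lost without MCK-PPARb replicate 1 (adjusted p = 0.0658) and without the intensity trend (0.132), and the adjusted p lay between 5.07e-05 and 0.132 over the alternatives. Lpin1, a PGC-1 partner and lipid phosphatase (-0.52 ± 0.18), Carm1, an arginine methyltransferase of coactivator complexes (-0.70 ± 0.24), and Smarcd3, a chromatin remodelling subunit of muscle (0.41 ± 0.18), did not pass.

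Hr, the gene of hairless, a corepressor of thyroid hormone, vitamin D and ROR receptors, had the largest difference of the thyroid hormone list. It read 839 and 453 in MCK-PPARb muscle, against 3343 and 2186 in non-transgenic muscle. Both MCK-PPARb arrays were lower, 4.39-fold on the fitted means (-2.13 ± 0.37, adjusted p = 0.0693 with limma), which missed the threshold. It passed without MCK-PPARb replicate 1 (adjusted p = 0.0212) and without non-transgenic replicate 2 (0.0297), and the adjusted p lay between 9.34e-05 and 0.249 over the alternatives. Of the 10 tested genes of that list, 0 passed and 2 had an unadjusted p under 0.05, with a median of -0.030. That p was reached by 10.9% of all tested genes. Atp2a2, the slow calcium pump, had a difference of 0.67 ± 0.22, Crym, a cytosolic thyroid hormone binder, of 0.57 ± 0.27, and Myh7, slow myosin, of 0.67 ± 0.35. The value of Myh7 rests on the non-transgenic arrays, at 0.085 without replicate 1 and 1.25 without replicate 2, where it passed (adjusted p = 0.0213 with limma).

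Of 23 tested PPAR target genes of muscle, 0 passed and 8 had an unadjusted p under 0.05, all 8 of them higher in MCK-PPARb muscle, beside 5.31% of all tested genes that were higher at that p. The median of the 23 was 0.30, with 18 positive and 5 negative differences, beside a median of 0.011 over all genes. Differences were 1.02 ± 0.18 for Pdk4, 0.98 ± 0.18 for Fabp3, 1.08 ± 0.21 for Cat and 0.76 ± 0.17 for Hadha. These are the 4 genes of smallest p in the list. Beside the 45.1-fold rise of Ppard, they read 1.69-fold (Hadha) to 2.12-fold (Cat) higher on the fitted means. Of the 5 negative differences of the list, Ucp3 was at -0.43 and Acadvl at -0.30. Pdk4 and Fabp3 passed with quantile normalization (adjusted p = 0.0301 and 0.0268 with limma) and with the replicate block. Neither passed with no filter, with median centring or without the intensity trend. With 1 array left out the differences were 0.95 to 1.09 for Pdk4 and 0.90 to 1.06 for Fabp3. The list of ERR and PGC-1 targets, mitochondrial genes in the main, had a median of -0.044 over 21 tested genes. Of these 0 passed, and 1 had an unadjusted p under 0.05, Idh3a (-0.47 ± 0.19), beside 10.9% of all tested genes. Cycs, cytochrome c, was at -0.35 ± 0.19, Slc25a4, the muscle ADP/ATP carrier, at -0.40 ± 0.23 and Vegfa at -0.51 ± 0.30.

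Of 12 tested LXR targets, 1 rose, 0 fell and 11 did not pass, beside 0.731% called over all tested genes. The median of the 12 was 0.22. Scd1, a fatty acid desaturase, rose 2.82-fold (1.49 ± 0.21, adjusted p = 0.0348 with limma). The call was lost without MCK-PPARb replicate 1 or 2 (adjusted p = 0.144 and 0.0686), without the intensity trend (0.164) and with probe sets averaged (0.0636), and the adjusted p lay between 0.000462 and 0.164 over the alternatives. Fasn, fatty acid synthase, was at 1.60 ± 0.36 (1.19 to 2.01 with 1 array left out) and passed without non-transgenic replicate 2. Scd2 was at 0.43 ± 0.23, and Srebf1, the lipogenic regulator that LXR activates, was at -1.13 ± 0.22 with both MCK-PPARb arrays lower (adjusted p = 0.0939 with limma). Adipocyte markers, of which Scd1 is one, had a median of 0.89 over the 6 tested of 9 on the array. Of the 6, 1 rose, Scd1. An unadjusted p under 0.05 was reached by 4, 3 of them higher and 1 lower, beside 10.9% of all tested genes. The summed signal of these markers was 74482 and 50918 in MCK-PPARb muscle, against 107639 and 117900 in non-transgenic muscle. Car3, also abundant in slow fibres, made up most of it. It was at -1.46 ± 0.28 with both MCK-PPARb arrays lower (adjusted p = 0.0939 with limma). Pparg, the defining receptor of fat cells, was below the filter on all arrays. The part of fat cells in these results was not tested.

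Of 12 tested clock genes, 0 passed and 2 had an unadjusted p under 0.05, with a median of 0.18. That p was reached by 10.9% of all tested genes. Nfil3 (1.02 ± 0.30) and Clock (1.10 ± 0.34), a transcriptional repressor and a core activator of the clock, had both MCK-PPARb arrays above both non-transgenic arrays. Per1 was at -0.72 ± 0.34 and Tef at 0.34 ± 0.17. The hour at which muscles were taken is not given in the sources used here. Of 12 tested immediate early genes, 0 passed and 2 had an unadjusted p under 0.05, again beside 10.9% of all tested genes. Their median was 0.55. Jun (0.83 ± 0.23), Atf3 (2.19 ± 0.60), Btg2 (0.84 ± 0.39) and Zfp36 (0.83 ± 0.40), the 4 of smallest p, had positive differences where Nr4a1 had a negative one. Over these 12 genes, 9 differences were positive and 3 negative. Atf3 read 2304 and 1492 in MCK-PPARb muscle, against 800 and 208 in non-transgenic muscle. Its non-transgenic replicate 2 lay below the filter of 444 units. Jun and Atf3 passed without non-transgenic replicate 1 (1.10 and 3.16), and without non-transgenic replicate 2 their differences were 0.57 and 1.21.

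Of 19 tested glucocorticoid targets, 0 passed and 0 had an unadjusted p under 0.05 (limma), with a median of -0.14. Sgk1 was at -0.68 ± 0.30, Per1 at -0.72 ± 0.34, Cebpd at 0.81 ± 0.42 and Pik3r1 at 0.50 ± 0.29. Of 8 tested retinoid genes, 0 passed and 2 had an unadjusted p under 0.05, with a median of 0.051. That p was reached by 10.9% of all tested genes. Aldh1a1, which makes retinoic acid, was at -0.86 ± 0.30, Rbp4, the retinol carrier, at 1.07 ± 0.39, Dhrs3 at 0.49 ± 0.25 and Retsat at -0.29 ± 0.23. Both non-transgenic arrays of Rbp4, at 263 and 426, lay below the filter of 444 units. The sign of Rbp4 is therefore not independent of the filter.

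**Figure D5:**
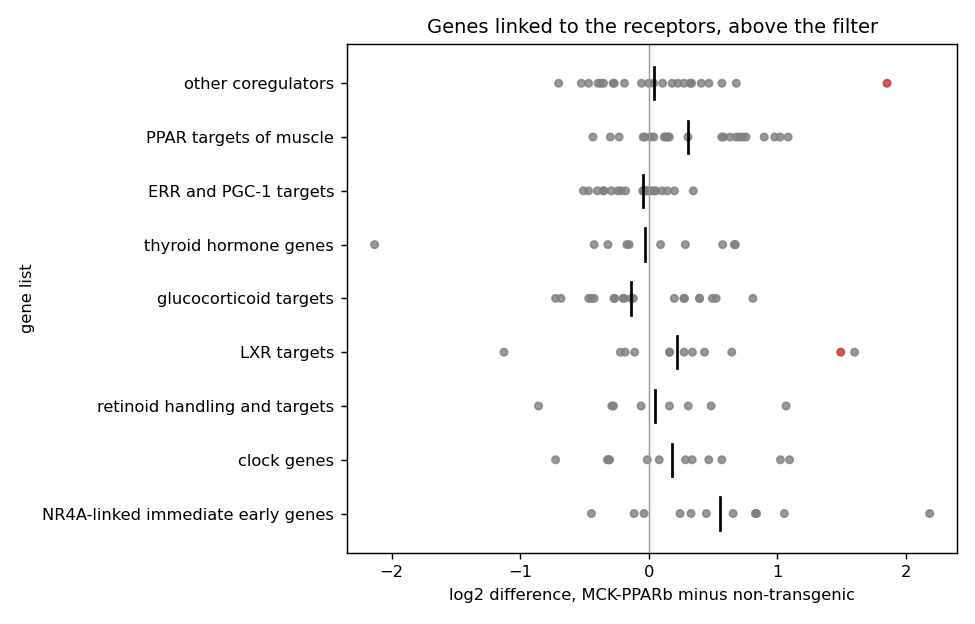
Log2 difference, MCK-PPARb minus non-transgenic, of each tested gene (points) in 9 lists of genes linked to the receptors, with the median of each list as a black bar and called genes in red. Cited2 and Scd1 are the 2 called genes, and the medians lie between -0.14 and 0.55.

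Markers of other cells gave the following values. Slow fibre genes had a median of 1.10 over 9 tested genes, with 0 called and 6 at an unadjusted p under 0.05, all higher. Over all tested genes 10.9% reached that p, and 5.31% were higher at it. The summed signal of the slow fibre genes was 176799 and 205861 in MCK-PPARb muscle, against 84550 and 130991 in non-transgenic muscle. Myl2, the slow regulatory light chain, read 51382 and 62406 in MCK-PPARb muscle, against 16355 and 24471 in non-transgenic muscle (adjusted p = 0.0540 with limma). Schwann cell markers had a median of 0.63 over 4 tested genes, of which 0 passed and 3 had an unadjusted p under 0.05, and their summed signal was 32650 and 36578 in MCK-PPARb muscle, against 19658 and 21527 in non-transgenic muscle. Pmp22, a myelin protein gene, was at 0.67 ± 0.21. Medians were 0.070 for macrophage, -0.12 for endothelial, -0.12 for fibroblast, 0.062 for satellite cell and 0.059 for smooth muscle markers, over 8, 10, 10, 5 and 7 tested genes with 0 called in each. The brightest genes of those lists, Csf1r (-0.016 ± 0.22), Cdh5 (-0.23 ± 0.20), Col1a2 (-0.11 ± 0.25), Des (0.062 ± 0.25) and Rgs5 (-0.28 ± 0.28), had differences of at most 0.28 in size. Des is also on the skeletal muscle list, so its value is not particular to satellite cells. In those 5 lists 1 gene reached an unadjusted p under 0.05. Of 8 erythroid genes, 1 was tested, Alas2, with a difference of 0.17 ± 0.31. The skeletal muscle list had a median of -0.27 over its 12 genes, and its summed signal was 1564067 and 1378685 in MCK-PPARb muscle, against 2305271 and 1339063 in non-transgenic muscle. The part of fibre type and of nerve sheath cells in the differences of Ppara, Thra, Nr1d2, Rxrg and Nr4a1 was not tested.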

How the data were processed

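RNA of 4 gastrocnemius samples was measured on Affymetrix arrays. Each deposited value is the linear signal intensity of 1 probe set on 1 array, and the authors used MAS5 and GCOS, per the submitters' processing notes, with versions not given in the sources used here. No column of another sample was present (0 columns). From 22690 probe sets, 64 controls were removed, and 20380 of the other 22626 had 1 gene symbol, 691 several and 1555 none here. Symbols were updated through gene numbers for 20351, with the GRCm38.p6 gene table.

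Intensities were put on the log2 scale without a pseudocount. The filter kept 11313 probe sets whose mean log2 signal exceeded the median (444 units). The comparison used limma 3.58.1 (R 4.3.3; lmFit, then two-sided eBayes with an intensity trend), with p-values adjusted over all kept probe sets by Benjamini-Hochberg and calls under 0.05. The prior added 5.38 degrees of freedom to 2. The fit was tested on simulated data. The precision is limited by the number of arrays.

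Named genes are all members, the called genes of each comparison list and up to 4 of smallest p in each. From each marker list the called genes and the gene of highest mean are named. Members, lists and tests were chosen with earlier results of these data known. Normalization was varied by quantiles and by median centring, and the signal scale by a pseudocount of 100 and by a floor at the filter level. The filter was dropped or set at the 75th percentile, _s_at and _x_at probe sets were dropped, and the probe sets of a gene were averaged. The fit was varied by a replicate block, no trend, robust eBayes, an adjusted p under 0.1 and leaving out 1 array at a time. The replicate block with no filter or with quantile normalization was added after seeing the data.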

Additional observations from a re-analysis of the deposited data

How the results depend on the processing

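Ppard passed under all alternatives. The number of genes called among the family was 1, and it was 2, with Nr4a1, under median centring, the filter at the 75th percentile, an adjusted p under 0.1 and the replicate block, alone or with no filter or quantile normalization, and 1 to 2 with 1 array left out (2 without non-transgenic replicate 2). With the replicate block Nr4a1 had an adjusted p of 0.00249. Arrays sharing a number deviated together over the kept probe sets (r = 0.28 across probe sets, which are not independent), but the labels give no shared litter or day, so the number is not taken as a pairing. Over the kept probe sets 68 were called, and 377 with the replicate block, 116 with median centring, 21 without the trend, 36 without MCK-PPARb replicate 1, and for the non-transgenic arrays 144 without replicate 1 and 159 without replicate 2. With the block, 203 were called with no filter and 427 with quantile normalization. Median centring moved the median difference of all kept probe sets to -0.089, beside 0.017. Genes called in the linked lists numbered 2, and 5 with quantile normalization, 0 without the trend (23 at an unadjusted p under 0.05), 13 with the replicate block (5 of them PPAR targets, Acadl, Cat, Fabp3, Hadha and Pdk4), 6 and 16 with that block and no filter or quantile normalization, 1 with probe sets averaged, 7 at an adjusted p under 0.1 and 1 to 10 with 1 array left out (1 when either MCK-PPARb array was left out, and 6 and 10 without replicate 1 or 2 of the non-transgenic group). Signs turned as follows, all for genes that were not called. With 1 array left out the range was -0.21 to 0.28 for Rarg, -0.12 to 0.016 for Esrra, -0.21 to 0.86 for Esrrg, -0.29 to 0.24 for Nr2c1, -0.49 to 0.50 for Nr2f2, -0.15 to 0.039 for Ppargc1a, -0.17 to 0.19 for Ncoa1, -0.068 to 0.48 for Ncoa4, -0.84 to 0.55 for Nrip1, -0.030 to 0.49 for Med1 and -0.73 to 0.16 for Mylpf. Median centring gave -0.072 for Rarg, -0.028 for Rora, -0.10 for Nr2f2 and -0.094 for Ncoa1. Quantile normalization, with or without the block, gave -0.029 for Nr2f2, -0.010 for Ncoa1 and 0.020 for Mylpf, and the pseudocount gave -0.00085 for Nr2f2. Averaging the probe sets of a gene gave -0.086 for Rora, 0.14 for Nr2c1, -0.12 for Nr2f2 and -0.018 for Nr2f6. The causes were not tested. Depth is not known for arrays, and signals near or below 444 units set a limit on the dim genes.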
